A study of Mus musculus with 16 samples.

Results

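Transcript levels were compared between Tie-2-Etv2 and control mice in yolk sac cells that carry VE-cadherin and lack CD45, called CD45- cells here. The comparison rests on 4 of the 16 arrays of the study, 2 of Tie-2-Etv2 and 2 of control yolk sac cells, taken by their sample labels and not by any measured value. All cells were sorted at E11.5 (embryonic day) on VE-cadherin, the adhesion protein of endothelial junctions and product of Cdh5, and on CD45, a phosphatase on the surface of leukocytes and product of Ptprc. In the Tie-2-Etv2 animals an Etv2 transgene was turned on by a Cre recombinase under Tie-2 regulatory sequences, which are active in endothelial cells and in many blood cells descended from them. The control animals carry only the label Control, and whether they bore one of the transgenes is not given. The strain of both genotypes is labelled mixed (B6/CBA and others). CD45- cells of the embryo proper and CD45+ cells of the yolk sac, each with 2 Tie-2-Etv2 and 2 control arrays, served for comparison. For the transgenic embryo CD45- samples the title gives Tie-2 alone, while the genotype label is Tie-2-Etv2. Whether the 2 samples of a group are from different embryos is not stated, and p-values therefore reflect the spread between the samples at hand, possibly a technical one.

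Etv2 is a transcription factor of the ETS family, whose members bind DNA at a GGAA core. The mouse embryo cannot form its first blood and endothelial cells without it; it is expressed for a short time, and is then shut down as vessels form. The yolk sac vessels are a site where endothelial cells turn into blood progenitors, a step that depends on Runx1, and young progenitors and megakaryocytes can be without CD45 on their surface.

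The arrays were 1-colour Agilent arrays, on which a level is the log2 signal of a probe relative to the 75th percentile of its array, so 0 is the level of a fairly bright probe and levels of different genes are not comparable. Between 50.6% and 59.9% of probes were well above background on each of the 16 arrays and 0 spots were saturated. Correlated across genes, which are no independent replicates, the 2 Tie-2-Etv2 arrays gave 0.985 and the 2 control arrays 0.992. The number of arrays limits the precision. All 4 lay on 1 slide in one row, the controls in the first places and the Tie-2-Etv2 samples next to them, so array position and genotype cannot be told apart. Differences are Tie-2-Etv2 minus control on the log2 scale with the standard error (SE) of a limma fit over all 16 arrays, and a gene passed the test at an adjusted p under 0.05. As these are bulk samples, fewer cells of a type and less RNA per cell cannot be told apart.

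Etv2 itself was high in the transgenic cells. The sequence of the probe used for it is shown because it defines what was read as Etv2; it lies on mouse chromosome 7, in coordinates of build mm9 as in the array files, and no letters are in capitals.
Etv2 probe, chr7:31418776-31418835, - strand: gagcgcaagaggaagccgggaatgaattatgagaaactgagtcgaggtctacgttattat
The probe read 3.90 and 3.26 on the Tie-2-Etv2 arrays, against -2.60 and -2.95 on the control arrays. The difference was 6.36 ± 0.96 (SE, adjusted p = 0.000508) and 5.05 with another background correction (normexp), and both transgenic arrays lay far above both controls. The other Etv2 probe, on the same chromosome at 31419633 to 31419692, read 3.44 and 2.93 in Tie-2-Etv2 cells, against -3.39 and -3.73 in control cells. Whether the probes read the transgene, the endogenous gene or both is not given in the files.

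Markers of the gate were as labelled in the control cells. Cdh5 stood at 4.72 and 4.76 in Tie-2-Etv2 cells, against 5.99 and 5.52 in control cells. Its difference was -1.01 ± 0.30 (adjusted p = 0.021), and both Tie-2-Etv2 arrays lay below both control arrays. Without control array 1 the difference was -0.78. The test was not passed without control array 1 or either Tie-2-Etv2 array, in fits that leave 1 array in a group. Tek, the gene of Tie-2, stood at 3.62 and 3.46 in Tie-2-Etv2 cells, against 4.08 and 4.38 in control cells, a difference of -0.69 ± 0.31 (adjusted p = 0.0968). Ptprc was not well above background in control cells and read -2.92 and -3.43 in Tie-2-Etv2 cells, which is at least 3.23-fold higher (adjusted p = 0.000808). In the CD45+ gate the same probe read 2.08 and 2.06 in Tie-2-Etv2 cells and 3.28 and 3.41 in control cells. Here and below, a bound of this kind sets the bright group against the higher of the dim probe's own signal and the lowest signal well above background on the same array.

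The genotypes differed across much of the transcriptome. Of 24578 genes tested, 41.9% passed the test, 26.1% as higher in Tie-2-Etv2 cells (6405 genes) and 15.8% as lower (3882 genes). Counts of list members that passed this test, here and below, are to be read beside these shares. The split depended on the scaling: with the percentile taken over probes detected on all arrays it was 4066 higher and 5618 lower, and with quantile normalization 5092 and 4350. Without Tie-2-Etv2 array 1 the counts were 3903 higher and 2687 lower, and without control array 2 there were 4264 higher. The median difference over all genes was 0.175, against -0.14 with the detected-probe scaling, 0.0588 with quantile normalization and 0.0169 with normexp, and list medians below are to be read against it. Across these 4 settings 3556 genes were higher and 3254 lower in each of them. Among genes well above background on all 4 arrays and past the test, 591 were at least 2 log2 units higher and 1189 at least 2 lower, but at 6 log2 units there were 33 higher and 12 lower. The median SD of a gene was 0.199 over the Tie-2-Etv2 arrays and 0.138 over the control arrays.

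**Figure D1:**
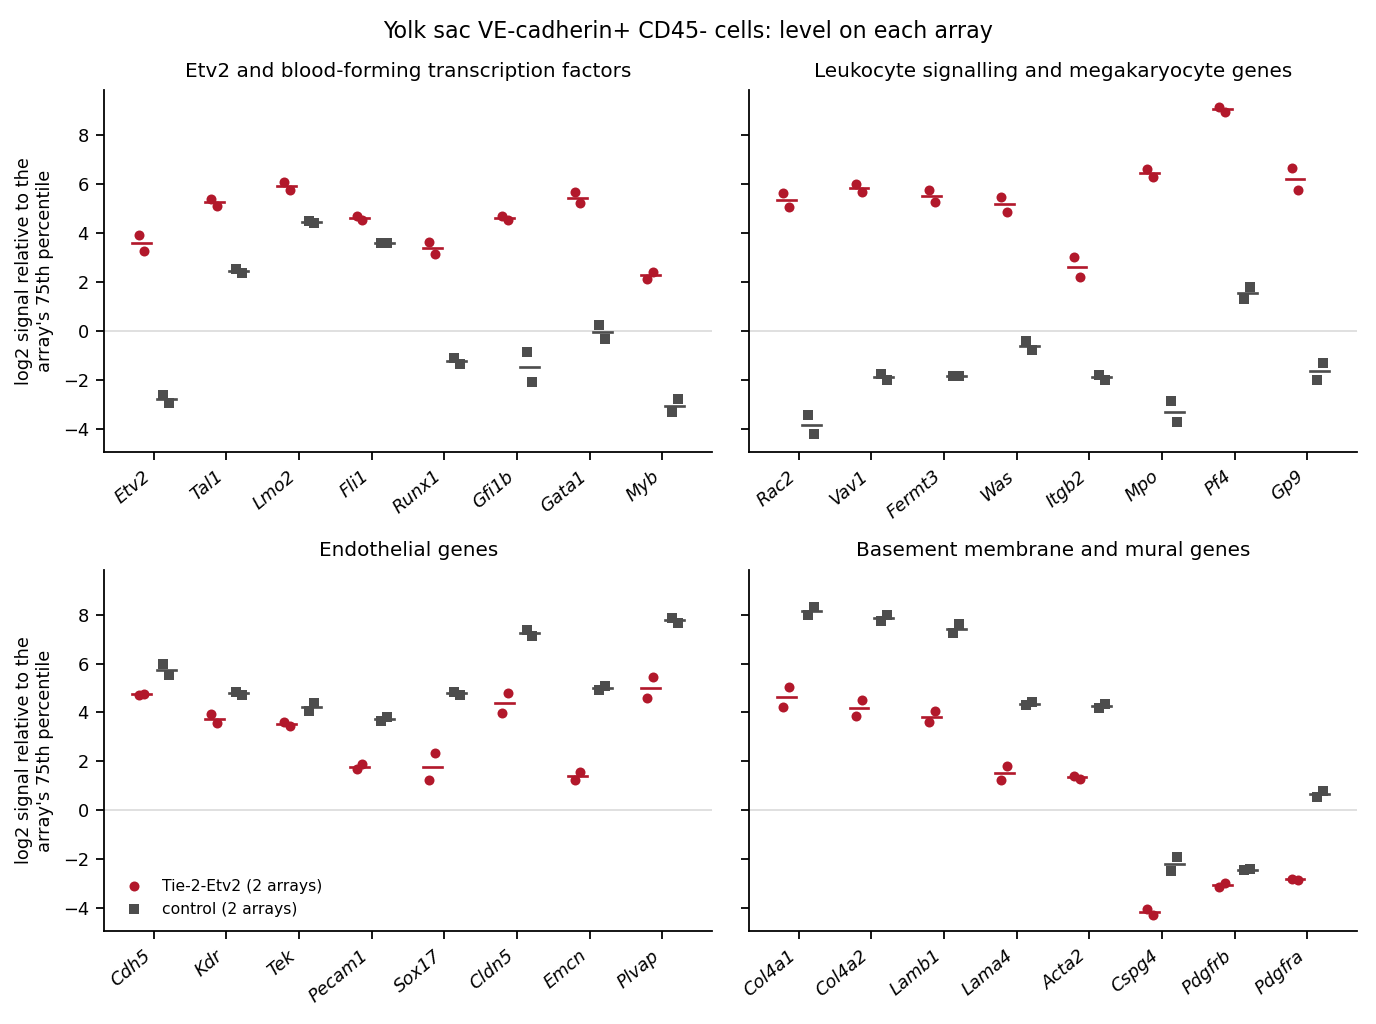
Log2 signal relative to the array's 75th percentile for 32 genes on each yolk sac CD45- array (red circles, 2 Tie-2-Etv2 arrays; grey squares, 2 control arrays; bars, group means). Etv2 stands at 3.90 and 3.26 against -2.60 and -2.95, leukocyte and megakaryocyte genes are higher in Tie-2-Etv2 cells, and most endothelial and basement membrane genes are lower.

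Genes of leukocyte adhesion and actin signalling formed the list with the highest median. These genes encode the Rac and Vav switches, the actin regulators and the integrin activators that blood cells share. Of 53 members tested, 48 were higher, 2 lower and 3 did not pass the test, with a median of 4.01 (2.85 with normexp) beside 0.175 over all genes. Rac2, the blood-specific Rac GTPase, stood at 5.65 and 5.06 in Tie-2-Etv2 cells, against -3.43 and -4.23 in control cells, a difference of 9.19 ± 0.27 (adjusted p = 1.58e-08). Vav1, which activates Rac downstream of blood cell receptors, stood at 6.02 and 5.66 in Tie-2-Etv2 cells, against -1.75 and -2.02 in control cells, a difference of 7.72 ± 0.23 (adjusted p = 1.74e-08). In both genes the groups lay more than 7 log2 units apart on every array.
The integrin activator Fermt3 (kindlin-3) read 5.76 and 5.28 in Tie-2-Etv2 cells, against -1.85 and -1.84 in control cells, a difference of 7.36 ± 0.18 (adjusted p = 9.25e-09). Was, the actin regulator mutated in Wiskott-Aldrich syndrome, read 5.47 and 4.88 in Tie-2-Etv2 cells, against -0.43 and -0.79 in control cells, a difference of 5.79 ± 0.22. Itgb2, the beta chain of the leukocyte integrins, read 3.01 and 2.20 in Tie-2-Etv2 cells, against -1.80 and -2.0 in control cells, a difference of 4.51 ± 0.29. The kinase gene Btk rose by 8.63 ± 0.21 and Plek, the protein kinase C substrate of platelets and leukocytes, by 8.46 ± 0.27. Fyb, an adaptor that links receptors to integrin activation, was at least 285-fold higher, since it was not well above background in control cells (adjusted p = 3.75e-07; 5.51 with normexp), its probes ranging from 6.81 to 9.31 log2 units. The members that fell were Lsp1, an actin-binding protein (-1.32 ± 0.24, adjusted p = 0.00158), and Elmo1, a partner of Rac exchange factors (-1.14 ± 0.19, adjusted p = 0.000851, -0.60 with normexp).

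The stretch before the transcription start is shown for Vav1 and Was, which both rose by more than 5 log2 units. They were picked because it holds AGGAAG or CTTCCT, letters with the GGAA core that ETS factors read. The same stretch of Fermt3, which rose more than Was, held AGGAAG or CTTCCT 0 times, though it holds TTCC, the GGAA core on the other strand. The sequences are RefSeq's on build GRCm38.p6, 120 bases 5′ to 3′ in the direction of the gene, with the letters AGGAAG, or CTTCCT for the other strand, in capitals.
Vav1, chr17:57278980-57279099, + strand: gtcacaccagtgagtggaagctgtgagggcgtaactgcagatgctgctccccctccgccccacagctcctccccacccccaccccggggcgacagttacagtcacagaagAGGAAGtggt
Was, chrX:8090492-8090611, - strand: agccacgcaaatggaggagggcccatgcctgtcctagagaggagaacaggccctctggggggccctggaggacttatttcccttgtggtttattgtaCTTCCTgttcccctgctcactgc
These letters stood within 250 bases before to 50 bases after the start in 29 of 41 leukocyte adhesion genes with a RefSeq promoter (70.7%). They stood there in 38% of the 12907 tested genes with one and in 38.4% of all 27025 genes with one. Here and below a gene counted once if any of its promoters held the letters. The leukocyte adhesion genes had a mean of 1.37 promoters each, against 1.26 for all tested genes. The share was 39.2% among genes that rose by at least 1 log2 unit (675 of 1724) and 39.7% among genes that fell by at least 1 (606 of 1527). A longer ETS string, CCGGAAG or CTTCCGG, was in 4.88% of the leukocyte adhesion genes and in 16.6% of tested genes. It was in 23.7% of genes that rose by at least 1 log2 unit (409 of 1724). Among genes that fell by at least 1 it was in 7.07% (108 of 1527). The cause of this split was not tested. Mean GC content was 54.9% over the promoters of the leukocyte adhesion genes and 59.4% over those of all tested genes. The shorter letters were chosen after the longer string had been counted, and a match is a description of the letters, not of a bound site.

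Megakaryocyte and platelet genes were the list with the next highest median. Of 42 members 33 were higher, 3 lower and 6 did not pass the test, with a median of 3.29; without either control array or Tie-2-Etv2 array 2, 1 was lower. Their summed level was 2230 and 1700 in Tie-2-Etv2 cells and 451 and 437 in control cells. On the linear scale Vwf, at 7.87 and 7.84, made up slightly more of the control sums than all other members together. Pf4, the platelet chemokine, stood at 9.17 and 8.95 in Tie-2-Etv2 cells, against 1.32 and 1.79 in control cells, a difference of 7.50 ± 0.32 (adjusted p = 2.19e-07). Gp9, a subunit of the platelet receptor for von Willebrand factor, stood at 6.65 and 5.77 in Tie-2-Etv2 cells, against -2.0 and -1.31 in control cells, a difference of 7.87 ± 0.50 (adjusted p = 2.26e-06). Neither gene's groups overlapped, and Pf4 on the control arrays was itself above the 75th percentile of probes.
The subunits of the platelet fibrinogen receptor rose together: Itga2b (CD41), also the earliest surface marker of embryonic blood progenitors, by 5.38 ± 0.47 (adjusted p = 2.04e-05) and Itgb3 by 5.47 ± 0.46 (adjusted p = 1.58e-05). The ATP receptor gene P2rx1 rose by 6.34 ± 0.23 and the dense granule gene Slc35d3 by 8.74 ± 0.77. Rgs18, a regulator of G protein signalling in platelets, was at least 274-fold higher (adjusted p = 9.25e-09; 5.31 with normexp). Vwf, made by endothelium as well as by megakaryocytes, moved the other way, at 6.77 and 6.00 in Tie-2-Etv2 cells, against 7.87 and 7.84 in control cells. Its difference of -1.47 ± 0.41 (adjusted p = 0.0154) was -1.09 (adjusted p = 0.108) without Tie-2-Etv2 array 2, and the adjusted p was 0.0659 and 0.0638 without control array 1 and array 2. Serpine2, a protease inhibitor, fell by 2.06 (adjusted p = 0.00586; -1.05 with normexp). The windows of Pf4 and Gp9 are shown as for Vav1, with the same letters in capitals.
Pf4, chr5:90772315-90772434, + strand: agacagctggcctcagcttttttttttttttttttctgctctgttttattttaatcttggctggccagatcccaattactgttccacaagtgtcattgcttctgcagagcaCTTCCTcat
Gp9, chr6:87777950-87778069, + strand: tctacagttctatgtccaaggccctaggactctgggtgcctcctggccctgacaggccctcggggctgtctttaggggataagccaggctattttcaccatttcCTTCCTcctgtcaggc
AGGAAG or CTTCCT was in 20 of 35 megakaryocyte and platelet promoters, or 57.1%. Of the 17 example genes of the lists that had a RefSeq promoter, 7 held these letters in the 120 bases before the start and 0 held the GATA letters AGATAA or TTATCT. The windows shown were taken from those 7, and no share over all genes was counted for 120 bases. Within 250 bases before to 50 after the start, the GATA letters were in 8.9% of tested genes. They were in 17.1% of leukocyte adhesion genes (7 of 41) and 17.1% of megakaryocyte and platelet genes (6 of 35). The shares were 3.57% for junction and surface genes, 0% for matrix genes and 7.14% for vascular receptors and ligands.

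Granule genes of neutrophils and monocytes were divided. Of 38 members 20 were higher, 2 lower and 16 did not pass the test, with a median of 2.02 (0.66 with normexp, and 1.00 when genes dim in a group were set to their bound). Mpo, the myeloperoxidase of primary granules, stood at 6.60 and 6.28 in Tie-2-Etv2 cells, against -2.86 and -3.74 in control cells. Its difference of 9.74 ± 0.53 (adjusted p = 9.71e-07) was the highest of any gene with a symbol that was measured on all 4 arrays. Prtn3, a serine protease of the same granules, stood at 1.18 and 0.45 in Tie-2-Etv2 cells, against -4.56 and -4.49 in control cells, only 1 of which was well above background, a difference of 5.34 ± 0.58 (adjusted p = 7.31e-05; 2.95 with normexp). The neighbouring protease gene Elane read 0.22 and -0.36 in Tie-2-Etv2 cells, against 0.82 and 0.56 in control cells, and did not pass the test (-0.76, adjusted p = 0.0721). Alox5, the lipoxygenase that starts leukotriene synthesis, was at least 702-fold higher (adjusted p = 9.93e-07), and Clec4d, a myeloid lectin receptor, at least 281-fold higher (adjusted p = 7.32e-06; 5.53 with normexp). Anxa1, an anti-inflammatory annexin, fell by 3.25 ± 0.25 (adjusted p = 9.87e-06).

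Transcription factors of blood emergence passed the test in both directions. Of 37 members 13 were higher (35.1%), 10 lower (27%) and 14 did not pass, beside 26.1% and 15.8% over all genes, with a median of 0.19. Runx1, required for blood cells to arise from endothelium, stood at 3.63 and 3.14 in Tie-2-Etv2 cells, against -1.12 and -1.35 in control cells, a difference of 4.62 ± 0.67 (adjusted p = 0.000408). Gfi1b, a repressor that acts downstream of Runx1, stood at 4.69 and 4.53 in Tie-2-Etv2 cells, against -0.86 and -2.08 in control cells, a difference of 6.08 ± 0.40 (adjusted p = 3.23e-06). Its paralogue Gfi1 went the other way: it was not well above background in Tie-2-Etv2 cells and read -1.60 and -1.38 in control cells, at least 9.59-fold lower (adjusted p = 0.00293; -1.24 with normexp).
Gata1, the erythroid and megakaryocyte master factor, rose by 5.50 ± 0.45 (adjusted p = 1.27e-05), and Nfe2, which drives platelet release, by 4.20 ± 0.44. Myb, needed for definitive but not primitive blood, stood at 2.14 and 2.39 in Tie-2-Etv2 cells, against -3.31 and -2.80 in control cells, a difference of 5.32 ± 0.41 (adjusted p = 8.37e-06). Spi1 (PU.1), the myeloid factor, read -0.28 and -0.34 in Tie-2-Etv2 cells and was not well above background in control cells, at least 23.6-fold higher (adjusted p = 2.43e-06; 2.14 with normexp). Among those that fell was Hoxa10 (-3.43; -1.65 with normexp).

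Progenitor surface proteins and cytokine receptors were higher for 23 of 43 members (53.5%) and lower for 7 (16.3%), beside 26.1% and 15.8% over all genes. The other 13 did not pass, and the median was 1.01 (0.48 with normexp). Kit, the stem cell factor receptor of blood progenitors and mast cells, did not differ past the test: it read 2.13 and 2.14 in Tie-2-Etv2 cells, against 2.30 and 2.36 in control cells (-0.20, adjusted p = 0.82). Csf1r, the receptor of macrophage colony-stimulating factor, read 2.06 and 2.21 in Tie-2-Etv2 cells, against 2.73 and 2.53 in control cells (-0.49, adjusted p = 0.156). Epor, the erythropoietin receptor, read 3.59 and 3.24 in Tie-2-Etv2 cells, against 2.46 and 1.92 in control cells, a difference of 1.22 ± 0.29 (adjusted p = 0.00707) that was lost without control array 2 (adjusted p = 0.0679) or Tie-2-Etv2 array 1 (0.0604). Cd52, a small leukocyte surface glycoprotein, was at least 240-fold higher (adjusted p = 7.03e-08; 5.26 with normexp). Il6st, the shared signalling chain of the interleukin-6 family (-2.25 ± 0.27), and Ly6a, or Sca-1 (-2.16), fell.

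Markers of macrophages, red cells, mast cells and lymphocytes were mixed, and their part in the results above was not tested. Of 51 macrophage genes 13 were higher (25.5%), 11 lower (21.6%) and 27 did not pass, beside 26.1% and 15.8% over all genes, with a median of 0.18, and 17 were not well above background in either genotype. Their summed level, the sum of linear levels relative to the 75th percentile, was 914 and 906 in Tie-2-Etv2 cells and 565 and 541 in control cells, against 5930 and 4540 in the control CD45+ cells of the same tissue. The list includes the platelet chemokine gene Pf4, at 9.17 and 8.95 in Tie-2-Etv2 cells, against 1.32 and 1.79 in control cells. On the linear scale Pf4 made up most of the Tie-2-Etv2 sums and little of the control sums. The higher sum in Tie-2-Etv2 cells therefore rests on this gene. C1qa, a complement chain that defines macrophages, was not well above background on any of the 4 arrays. Cx3cr1, the fractalkine receptor, was at least 4-fold higher (adjusted p = 0.00337) but 0.41 with normexp (adjusted p = 0.171). The macrophage mannose receptor gene Mrc1 read 1.90 and 3.69 in Tie-2-Etv2 cells, against 4.96 and 4.72 in control cells, a difference of -2.05 (adjusted p = 0.00611) that was -1.15 without Tie-2-Etv2 array 1. Mertk, the receptor for dying cells, fell by 3.60 ± 0.50, and Lilrb4a, a myeloid inhibitory receptor, was at least 1851-fold higher (adjusted p = 9.87e-06), its probes ranging from 9.12 to 12.14 log2 units.
Of 48 erythroid genes 15 were higher (31.2%), 8 lower (16.7%) and 25 did not pass, with a median of 0.15. The 8 lower became 0 without control array 1, 5 without control array 2, 1 without Tie-2-Etv2 array 1 and 13 with the replicate number as a block. The list had summed levels of 1230 and 1500 in Tie-2-Etv2 cells and 2180 and 1550 in control cells. The embryonic globin gene Hbb-bh1 read 6.91 and 7.80 in Tie-2-Etv2 cells, against 8.67 and 7.86 in control cells (-0.91, adjusted p = 0.418), and the groups did not differ past the test in Klf1, the erythroid factor (-0.07, adjusted p = 0.942). Of 17 mast cell genes 6 were higher (35.3%), 2 lower (11.8%) and 9 did not pass, with a median of 0.68 and summed levels of 46.9 and 38.9 in Tie-2-Etv2 cells and 13 and 12.7 in control cells. On the linear scale 1 member, Rab27b, made up most of the Tie-2-Etv2 sums. It read 4.92 and 4.44 in Tie-2-Etv2 cells, against 0.28 and 0.32 in control cells. Cpa3, the mast cell carboxypeptidase, read 0.60 and 0.85 in Tie-2-Etv2 cells and was not well above background in control cells, at least 48.2-fold higher (adjusted p = 0.000156; 3.14 with normexp). Of 30 early lymphoid genes 6 were higher (20%), 3 lower (10%) and 21 did not pass, with a median of 0.12 and summed levels of 48.1 and 39 in Tie-2-Etv2 cells and 31.5 and 27.6 in control cells. Cd69, an activation marker, was at least 95.1-fold higher (adjusted p = 1.1e-06; 3.90 with normexp), and Lef1, a Wnt pathway factor, fell by 3.75 ± 0.65 (-2.18 with normexp).

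**Figure D2:**
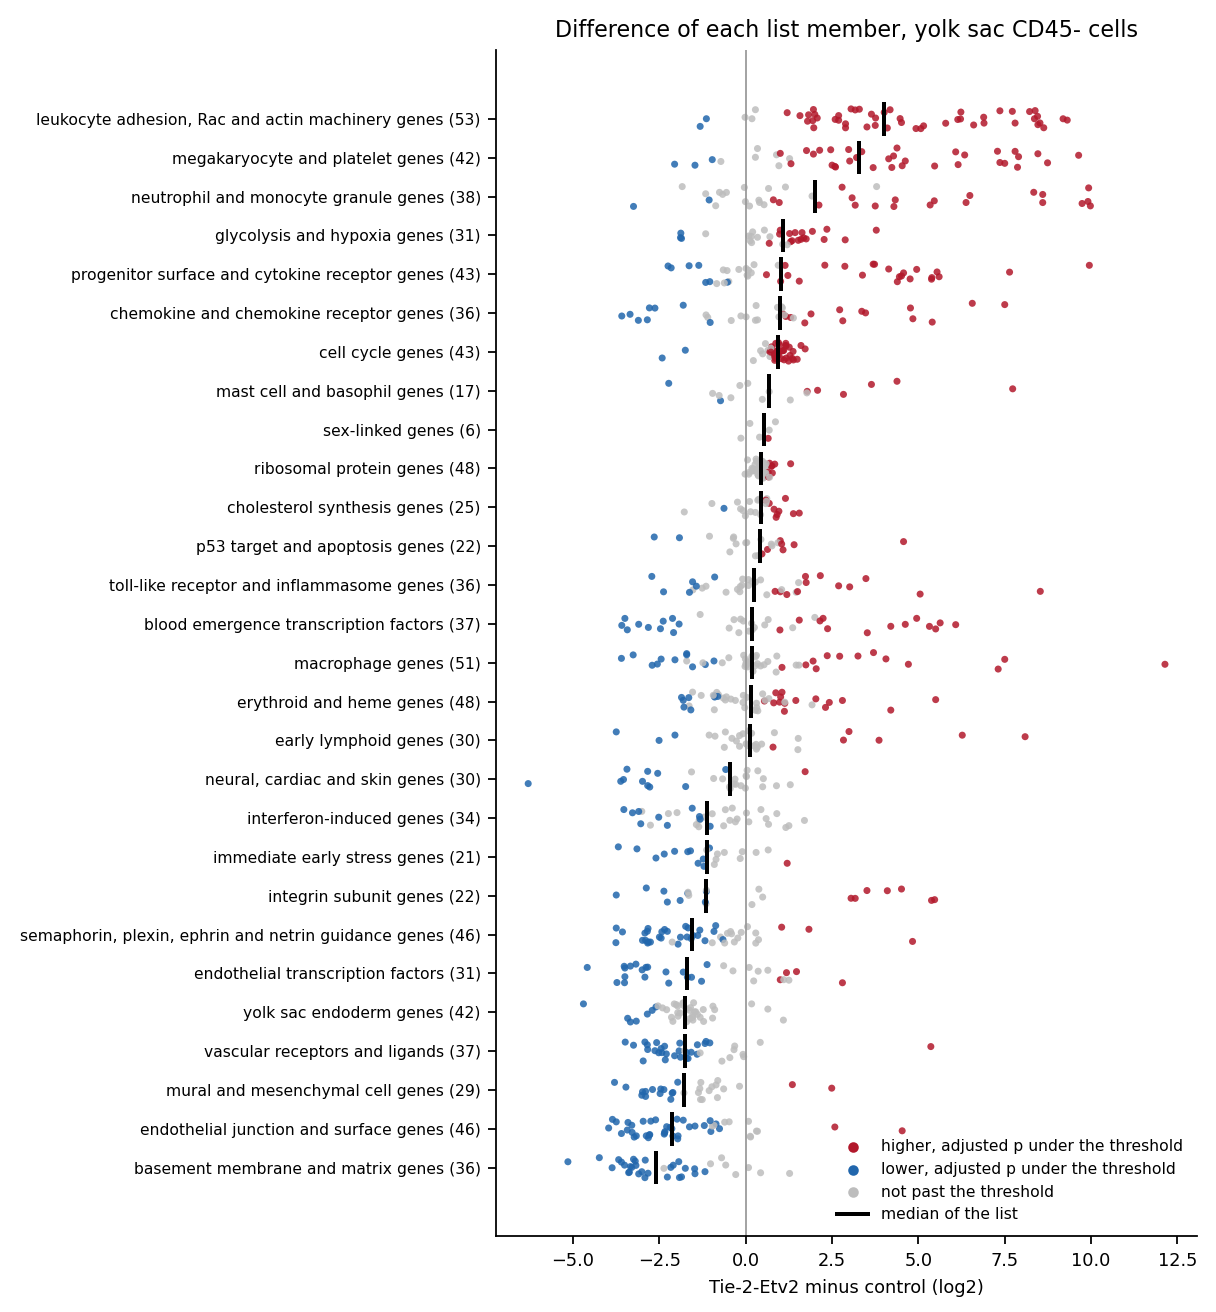
Difference of every tested member of the 28 gene lists (x axis, Tie-2-Etv2 minus control in log2; y axis, lists by median with the number tested; red, higher past the test; blue, lower past the test; grey, not past it; bar, list median). Medians run between 4.01 for leukocyte adhesion genes and -2.60 for basement membrane genes, and points of genes dim in a group are fitted values, not bounds.

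Most endothelial transcription factors fell, with exceptions that blood cells share. Of 31 members 4 were higher, 19 lower and 8 did not pass, with a median of -1.69. The higher ones included Tal1 and Lmo2, which act with Gata factors in blood as well as in endothelium. Tal1 stood at 5.38 and 5.12 in Tie-2-Etv2 cells, against 2.54 and 2.37 in control cells, a difference of 2.80 ± 0.37 (adjusted p = 0.000225). Lmo2 stood at 6.09 and 5.75 in Tie-2-Etv2 cells, against 4.48 and 4.43 in control cells, a difference of 1.47 ± 0.17 (adjusted p = 0.000118). The ETS factor Fli1 stood at 4.68 and 4.53 in Tie-2-Etv2 cells, against 3.59 and 3.61 in control cells, a difference of 1.00 ± 0.23 (adjusted p = 0.00563) that missed the threshold with quantile normalization (0.64, adjusted p = 0.0623).
Sox17, an arterial and hemogenic endothelial factor, stood at 1.22 and 2.33 in Tie-2-Etv2 cells, against 4.83 and 4.73 in control cells, a difference of -3.0 ± 0.39 (adjusted p = 0.0002). Tbx1, a T-box factor (-4.59 ± 0.52), and Foxc1, a forkhead factor of vessel development (-3.73 ± 0.33), fell most in the list. Erg, an ETS factor of mature endothelium, read -0.92 and -0.12 in Tie-2-Etv2 cells, against 1.48 and 1.09 in control cells. Its difference of -1.81 ± 0.58 (adjusted p = 0.0293) was lost without control array 1 (adjusted p = 0.132), control array 2 (0.0725) or Tie-2-Etv2 array 1 (0.178), and with the arrays of the yolk sac slide alone (0.0768).

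Endothelial junction and surface genes were lower for 35 of 46 members, higher for 2, and 9 did not pass, with a median of -2.13. Pecam1 (CD31), the adhesion molecule of endothelial and many blood cells, stood at 1.67 and 1.88 in Tie-2-Etv2 cells, against 3.65 and 3.83 in control cells, a difference of -1.97 ± 0.23 (adjusted p = 0.000104). Emcn, a sialomucin of veins and capillaries, stood at 1.22 and 1.58 in Tie-2-Etv2 cells, against 4.93 and 5.07 in control cells, a difference of -3.60 ± 0.25 (adjusted p = 4.71e-06). Cldn5, the endothelial tight junction claudin, stood at 3.97 and 4.78 in Tie-2-Etv2 cells, against 7.36 and 7.14 in control cells, a difference of -2.88 ± 0.32 (adjusted p = 8.41e-05). In these genes every Tie-2-Etv2 array was below both control arrays.
Plvap, which forms the diaphragms of fenestrae, fell by 2.75 ± 0.25, the junction gene Jam2 by 3.97 ± 0.33 and Cav1, the coat protein of caveolae, by 3.86 ± 0.50. The 2 that rose were Selp, the P-selectin of platelets and endothelium, and Mmrn1, multimerin of platelets and lymphatic endothelium. Selp read 0.83 and 0.78 in Tie-2-Etv2 cells, against -3.75 and -3.70 in control cells, a difference of 4.53 ± 0.71 (adjusted p = 0.00064; 2.73 with normexp). Mmrn1 read 6.14 and 5.94 in Tie-2-Etv2 cells, against 3.45 and 3.48 in control cells, a difference of 2.58 ± 0.74 (adjusted p = 0.0178). Its call was lost without any 1 of the 4 arrays, at adjusted p-values between 0.0538 and 0.0851. The window of Emcn is shown beside those of the genes that rose, since a gene that fell by more than 3 log2 units holds the same letters.
Emcn, chr3:137340958-137341077, + strand: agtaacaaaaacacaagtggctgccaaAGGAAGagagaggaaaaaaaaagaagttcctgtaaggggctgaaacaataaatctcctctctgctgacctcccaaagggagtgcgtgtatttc
AGGAAG or CTTCCT was in 15 of 28 junction and surface gene promoters, or 53.6%.

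Vascular receptors and ligands were lower for 27 of 37 members and higher for 1, and 9 did not pass, with a median of -1.77. The fall was uneven among the vascular growth factor receptors. Kdr (VEGF receptor 2), known in the mouse as a target of Etv2, read 3.93 and 3.56 in Tie-2-Etv2 cells, against 4.83 and 4.73 in control cells, a difference of -1.04 ± 0.26 (adjusted p = 0.00929). It was lost without control array 1 (adjusted p = 0.0541) or Tie-2-Etv2 array 2 (0.0643). Flt1, the decoy VEGF receptor, read 4.59 and 5.65 in Tie-2-Etv2 cells, against 6.94 and 6.72 in control cells, a difference of -1.71 ± 0.45 (adjusted p = 0.0122) that was lost without control array 1 (adjusted p = 0.0669) or Tie-2-Etv2 array 1 (-1.18, adjusted p = 0.114). Flt4, the lymphatic VEGF receptor, read 1.08 and 1.00 in Tie-2-Etv2 cells, against 0.66 and 0.58 in control cells (0.42, adjusted p = 0.306). Tie1, the partner of Tie-2, read 4.81 and 4.80 in Tie-2-Etv2 cells, against 5.32 and 4.92 in control cells (-0.32 ± 0.35, adjusted p = 0.509).
Nrp1, a coreceptor for VEGF and semaphorins, fell by 2.85 ± 0.35 (adjusted p = 0.000154), and the Notch ligand gene Jag1 by 3.49 ± 0.51. Aplnr, the apelin receptor of sprouting vessels, had a difference of -3.25 ± 0.80 (adjusted p = 0.00831, and 0.0708 without Tie-2-Etv2 array 1). The member that rose was Angpt1, the ligand that activates Tie-2. It stood at 4.21 and 4.11 in Tie-2-Etv2 cells, against -1.29 and -1.11 in control cells, a difference of 5.36 ± 0.59 (adjusted p = 7.76e-05). The window of Flt1 is shown as that of a receptor gene that fell, with the same letters in capitals.
Flt1, chr5:147726012-147726131, - strand: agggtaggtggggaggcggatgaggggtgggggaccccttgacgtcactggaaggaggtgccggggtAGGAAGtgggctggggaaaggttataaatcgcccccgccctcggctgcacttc
AGGAAG or CTTCCT was in 13 of 28 promoters of vascular receptors and ligands, or 46.4%. Guidance genes moved in the same direction: of 46 semaphorin, plexin, ephrin and netrin genes 29 were lower, 3 higher and 14 did not pass, with a median of -1.55 (-0.87 with normexp), and 17 were lower without Tie-2-Etv2 array 1. Efnb2, the arterial ephrin, fell by 2.92, Robo4, an endothelial guidance receptor, by 2.43, and Plxnb1 by 3.76 (-1.71 with normexp). Sema4d, a semaphorin of immune cells and platelets, rose by 4.83 ± 0.35 (adjusted p = 5.56e-06).

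Basement membrane and matrix genes had the lowest median of all lists. Of 36 members 28 were lower, 0 higher and 8 did not pass, with a median of -2.60. Col4a1 stood at 4.24 and 5.05 in Tie-2-Etv2 cells, against 8.00 and 8.30 in control cells, a difference of -3.51 ± 0.33 (adjusted p = 2.85e-05). Col4a2, its partner in type IV collagen, stood at 3.84 and 4.52 in Tie-2-Etv2 cells, against 7.73 and 7.98 in control cells, a difference of -3.68 ± 0.29 (adjusted p = 1.03e-05). In both network collagen genes the higher Tie-2-Etv2 array lay about 3 log2 units below the lower control array.
The laminin chains Lamb1 (-3.60 ± 0.43, adjusted p = 0.000131) and Lama4 (-2.83 ± 0.38, adjusted p = 0.000266) fell as well. Mgp, the matrix Gla protein, read -1.42 and -5.32 in Tie-2-Etv2 cells, against 1.39 and 2.17 in control cells, a difference of -5.15 ± 1.03 (adjusted p = 0.00267) that was -3.20 without Tie-2-Etv2 array 2. The elastin gene Eln fell by 4.24 ± 0.82 (adjusted p = 0.00216; -2.44 with normexp). AGGAAG or CTTCCT was in 12 of 24 matrix gene promoters, or 50%.

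Genes of mural and mesenchymal cells, which surround vessels and are not part of a VE-cadherin gate, fell beside the matrix genes. Of 29 members 14 were lower (48.3%), 2 higher (6.9%) and 13 did not pass, beside 15.8% and 26.1% over all genes. With only the arrays compared in the fit 24 were lower. Their median was -1.79 (-0.75 with normexp, -1.26 when genes dim in a group were set to their bound, and -1.58 without Tie-2-Etv2 array 1). Their summed level was 75.3 and 59.5 in Tie-2-Etv2 cells and 171 and 175 in control cells, and their part in the fall of matrix and endothelial genes was not tested. Acta2, the smooth muscle actin, read 1.41 and 1.30 in Tie-2-Etv2 cells, against 4.18 and 4.33 in control cells, a difference of -2.90 ± 0.44 (adjusted p = 0.000549). Pdgfrb, the pericyte receptor, read -3.15 and -2.98 in Tie-2-Etv2 cells, against -2.44 and -2.41 in control cells, and did not pass (-0.64, adjusted p = 0.323). Pdgfra, of mesenchyme, fell by 3.47 ± 0.83 (adjusted p = 0.00702) and Notch3, a Notch receptor of smooth muscle, by 3.80 ± 0.53. Cspg4, the pericyte proteoglycan NG2, had a difference of -1.97 (adjusted p = 0.0356) that was -0.77 with normexp (adjusted p = 0.104) and was lost without any 1 of the 4 arrays, at adjusted p-values between 0.0689 and 0.171. The members that rose were the protease gene Fap (2.49 ± 0.39; 1.06 with normexp) and the zinc finger factor gene Zeb2 (1.35 ± 0.21), which is also expressed in blood cells.

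Genes of the yolk sac endoderm, the tissue that lies against the vessels, read lower on Tie-2-Etv2 array 1 than on array 2. Of 42 members 39 read below both control arrays on Tie-2-Etv2 array 1 and 33 on array 2. Their median relative to the control mean was -3.17 on Tie-2-Etv2 array 1 and -0.42 on array 2, and 37 of the 42 were higher on array 2 than on array 1 by more than 1 log2 unit. Past the test 7 were lower (16.7%) and 0 higher, beside 15.8% and 26.1% over all genes. The median difference of -1.76 was -3.17 without Tie-2-Etv2 array 2 and -0.42 without Tie-2-Etv2 array 1. Without control array 1 and array 2 it was -1.72 and -1.82. Their summed level was 947 and 1630 in Tie-2-Etv2 cells and 1970 and 1850 in control cells. Afp, the alpha-fetoprotein of visceral endoderm, read 5.94 and 8.58 in Tie-2-Etv2 cells, against 8.79 and 8.69 in control cells (-1.48, adjusted p = 0.188). Ttr, the thyroid hormone carrier, read 1.36 and 4.64 in Tie-2-Etv2 cells, against 5.25 and 5.05 in control cells (-2.15, adjusted p = 0.125). The other lists moved less between the transgenic arrays, with medians on arrays 1 and 2 of 4.14 and 3.87 for leukocyte adhesion, -2.46 and -1.85 for junction and surface, -2.77 and -2.48 for matrix, and -1.79 and -1.58 for mural genes. The part of endoderm RNA in these results was not tested beyond these values.
Of 30 genes of neural, cardiac and skin cells 11 were lower (36.7%), 1 higher (3.33%) and 18 did not pass, beside 15.8% and 26.1% over all genes. Their summed levels were 11.8 and 13.4 in Tie-2-Etv2 cells and 57.4 and 57.9 in control cells. Tnnt2, the cardiac troponin T gene, fell by 3.44, and Stmn2, a neuronal gene, by 3.54.

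**Figure D3:**
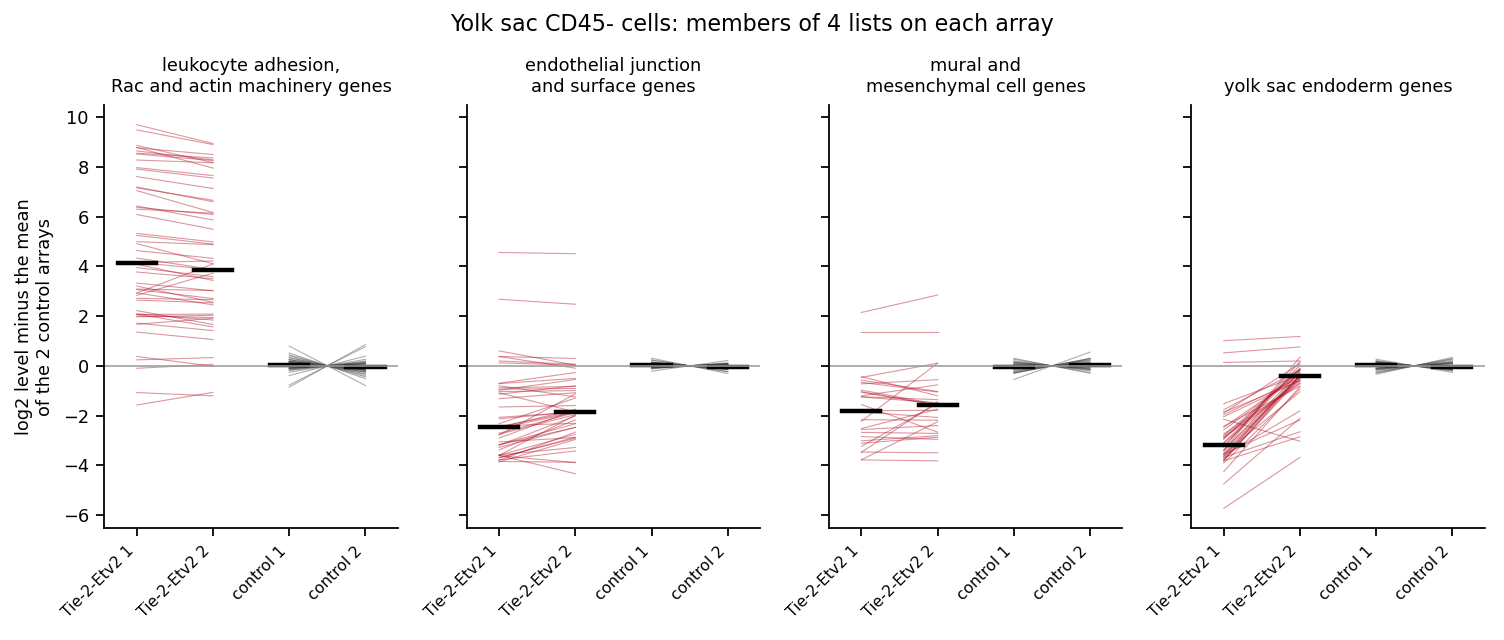
Each line is 1 gene of 4 lists, drawn as its log2 level minus the mean of the 2 control arrays on Tie-2-Etv2 arrays 1 and 2 (red) and control arrays 1 and 2 (grey, mirror images by construction); black bars are medians. Endoderm medians are -3.17 and -0.42 on the Tie-2-Etv2 arrays, while leukocyte adhesion medians are 4.14 and 3.87.

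Proliferation genes were modestly higher. Of 43 cell cycle genes 34 were higher (79.1%) and 2 lower (4.65%), beside 26.1% and 15.8% over all genes, with a median of 0.94. With quantile normalization 24 were higher at a median of 0.66. Top2a, the topoisomerase of dividing cells, rose by 1.10 (adjusted p = 0.000262) and Cdc45, of the replication helicase, by 1.60. Mki67, the proliferation antigen, read 6.24 and 6.20 in Tie-2-Etv2 cells, against 5.37 and 5.40 in control cells, a difference of 0.84 ± 0.14 (adjusted p = 0.00105) that missed the threshold with quantile normalization (0.42, adjusted p = 0.149). The D-type cyclin genes were the 2 that fell, Ccnd1 by 2.42 ± 0.26 and Ccnd2 by 1.75 ± 0.27.

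Outside the lists, the genes that fell most were of other kinds. Pnoc, the precursor of the neuropeptide nociceptin, stood at -3.50 and -3.94 in Tie-2-Etv2 cells, against 5.23 and 4.73 in control cells, a difference of -8.70 ± 0.82. Gkn2, a gastrokine, stood at -0.29 and -2.09 in Tie-2-Etv2 cells, against 6.62 and 6.90 in control cells, a difference of -7.95 ± 0.93. Edn2, a vasoconstrictor peptide of the endothelin family, stood at -3.24 and -4.42 in Tie-2-Etv2 cells, against 2.98 and 3.39 in control cells, a difference of -7.01 ± 0.63. All 3 were bright in control cells and their groups lay at least 6 log2 units apart.
Mucl3 fell by 7.74, Gm10639 by 6.70, the forkhead gene Foxq1 by 6.32, and the glutathione transferase genes Gsta1 and Gsta2, near-identical copies that probes may not separate, by 7.05 and 6.44. After Mpo the measured genes that rose most were the anion transporter gene Slco4a1 (9.37), the tubulin gene Tuba8 (9.34), Rac2 (9.19), Slc35d3 (8.74), Ccdc88b (8.70), the potassium channel gene Kcnj5 (8.67) and Btk (8.63). In all, 694 genes were well above background on both Tie-2-Etv2 arrays and neither control array, and 723 the other way round, of which 505 and 506 passed the test. Besides genes named above, 4933411E08Rik was at least 262-fold higher (adjusted p = 2.12e-08). The largest bounds of genes seen in control cells only were at least 37.2-fold lower for Myl7, an atrial myosin light chain, 35.8-fold for Nxf3, 30.7-fold for the noradrenaline transporter gene Slc6a2, 20.1-fold for Birc7, 19.6-fold for Adamts8, whose probes differed between -4.77 and 0.12, and 19.3-fold for Gcnt3, at adjusted p-values between 1.53e-06 for Nxf3 and 0.000797 for Adamts8. These bounds rest on dim signals: with normexp the fitted differences of these 6 genes lay between -2.78 for Myl7 and -1.92 for Adamts8, and that of 4933411E08Rik was 5.53.

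The effect was larger here than in CD45- cells of the embryo for many of these genes. The difference of the 2 effects, tested in the same fit, passed for 15.9% of genes, 9.54% with the higher effect in the yolk sac and 6.4% with the lower one. With the detected-probe scaling the split was 1032 higher and 2221 lower, and with quantile normalization 1623 and 1748. The total was 3917 genes, and fits without yolk sac Tie-2-Etv2 array 1, either yolk sac control array or either embryo Tie-2-Etv2 array gave totals of 1500 to 1920. As the tissues lay on different slides, tissue and slide cannot be told apart in this comparison. Of the 53 leukocyte adhesion genes 38 had a higher effect in the yolk sac and 1 a lower one, at medians of 4.01 in the yolk sac and 1.88 in the embryo. Rac2 rose by 9.19 in the yolk sac and by 6.12 in the embryo, a difference of 3.07 (adjusted p = 0.00137). Myb rose by 5.32 in the yolk sac and had an effect of 0.90 in the embryo, a difference of 4.41 (adjusted p = 0.00174).
Of the junction and matrix genes 0 passed the test in the embryo in either direction. Few genes passed there at all: of 24578 tested, 308 were higher and 8 lower, so a count of 0 lower is near the background. The median of matrix genes was -2.60 in the yolk sac and -0.32 in the embryo, with 22 of 36 effects lower in the yolk sac, and that of junction and surface genes was -2.13 and -0.37, with 22 of 46 lower. Emcn had effects of -3.60 and -0.29, a difference of -3.31 (adjusted p = 0.000949), and Sox17 of -3.0 and -0.63, a difference of -2.37 (adjusted p = 0.0185). For Runx1 (4.62 and 1.78) the difference of 2.83 did not pass (adjusted p = 0.0681), nor did that for Gp9 (2.25, adjusted p = 0.0537). Etv2 itself read 2.58 and 2.13 in Tie-2-Etv2 and -0.14 and -0.13 in control embryo cells, an effect of 2.50 beside 6.36 in the yolk sac, where its control level was lower.

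Set against CD45+ cells of the yolk sac, many endothelial genes had effects of opposite sign in the 2 gates. The difference of effects passed for 18.4% of genes, 10.5% with the higher effect in CD45- cells and 7.89% with the lower. With the detected-probe scaling 2001 genes had the higher and 2497 the lower effect, beside 2579 and 1938, and without yolk sac CD45- control array 2 there were 1688 with the higher. Of the 46 junction and surface genes 36 had a lower effect in CD45- cells, at medians of -2.13 in CD45- and 1.32 in CD45+ cells. In CD45+ cells 22 of them passed as higher, beside 4457 of 24578 over all genes. Pecam1 fell in CD45- cells, while in CD45+ cells it read 1.65 and 1.52 in Tie-2-Etv2 cells, against -1.13 and -0.87 in control cells, a difference of effects of -4.55 (adjusted p = 1.4e-05). The Pecam1 levels of the 2 gates were thus nearly the same in Tie-2-Etv2 cells, at 1.67 and 1.88 in CD45- and 1.65 and 1.52 in CD45+ cells, and about 4 to 5 log2 units apart in control cells.
Leukocyte adhesion genes had a median effect of 0.08 in CD45+ cells, and 43 of 53 effects were higher in CD45- cells. Vav1, for example, had an effect of 0.04 in CD45+ cells (adjusted p = 0.908), a difference of 7.68 (adjusted p = 5.68e-07). The list was already high in control CD45+ cells, at summed levels of 1910 and 1630, and read 1820 and 1740 in Tie-2-Etv2 CD45+ cells. In CD45- cells the sums were 160 and 139 in control and 1410 and 1070 in Tie-2-Etv2 cells. The difference of effects thus goes with different control levels in the 2 gates. Macrophage genes had a median of -3.47 in CD45+ and 0.18 in CD45- cells. Megakaryocyte genes rose in both gates, with medians of 3.29 in CD45- and 2.17 in CD45+ cells. Itga2b had effects of 5.38 in CD45- and 7.17 in CD45+ cells and Itgb3 of 5.47 and 5.17, and neither difference passed (adjusted p = 0.0966 and 0.83), but Pf4 rose in CD45- cells and fell by 2.13 in CD45+ cells.

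**Figure D4:**
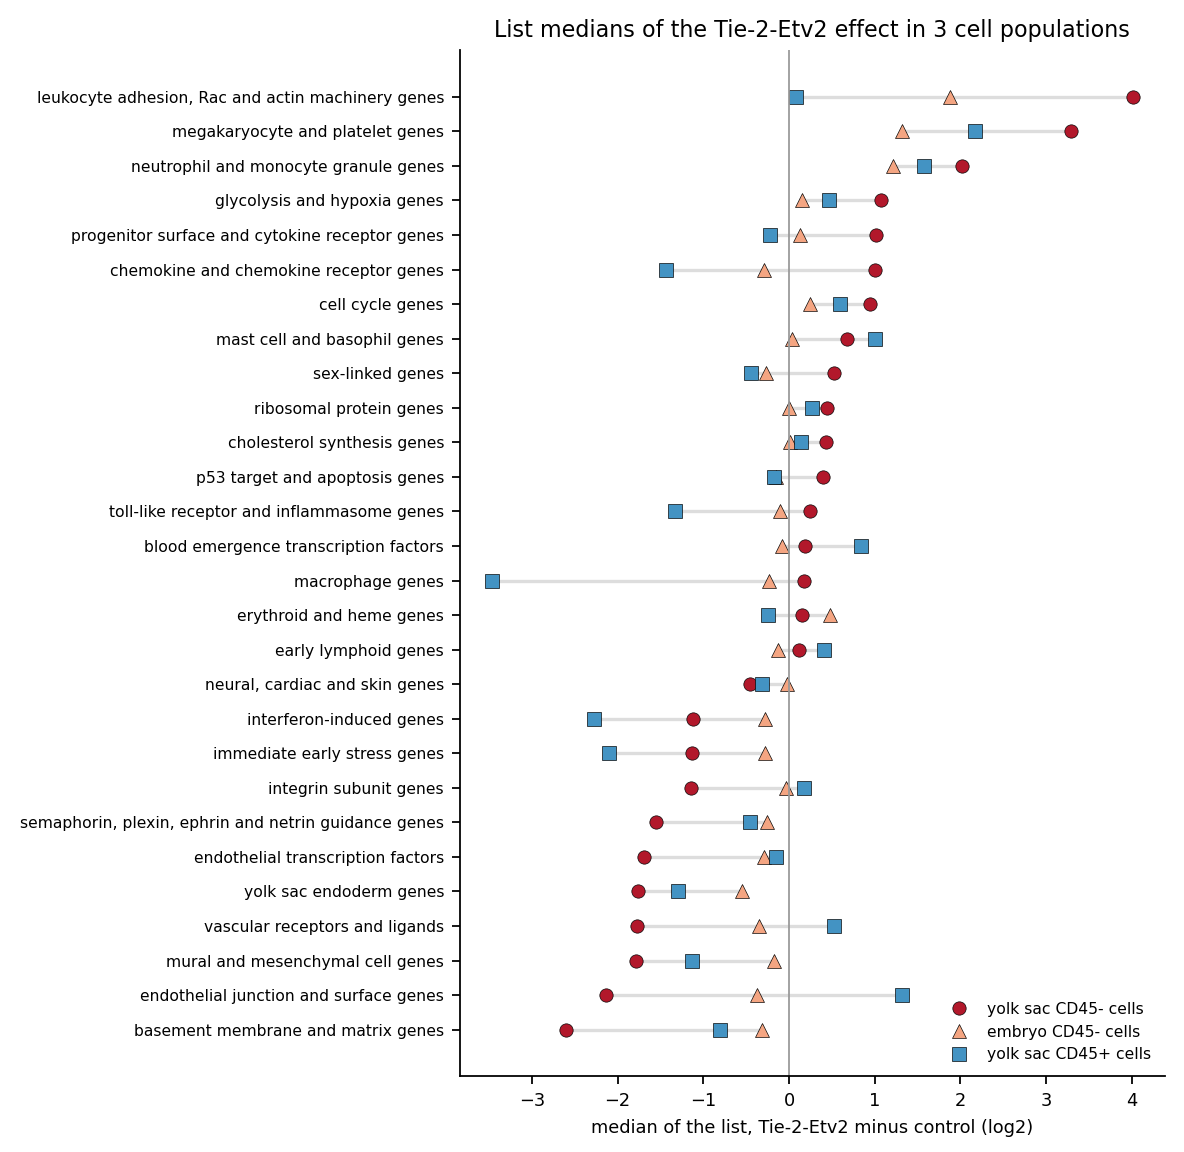
Median Tie-2-Etv2 minus control difference (log2) of each of the 28 lists in yolk sac CD45- cells (dark red circles), embryo CD45- cells (orange triangles) and yolk sac CD45+ cells (blue squares). Leukocyte adhesion genes stand at 4.01, 1.88 and 0.08 and junction and surface genes at -2.13, -0.37 and 1.32.

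**Figure D5:**
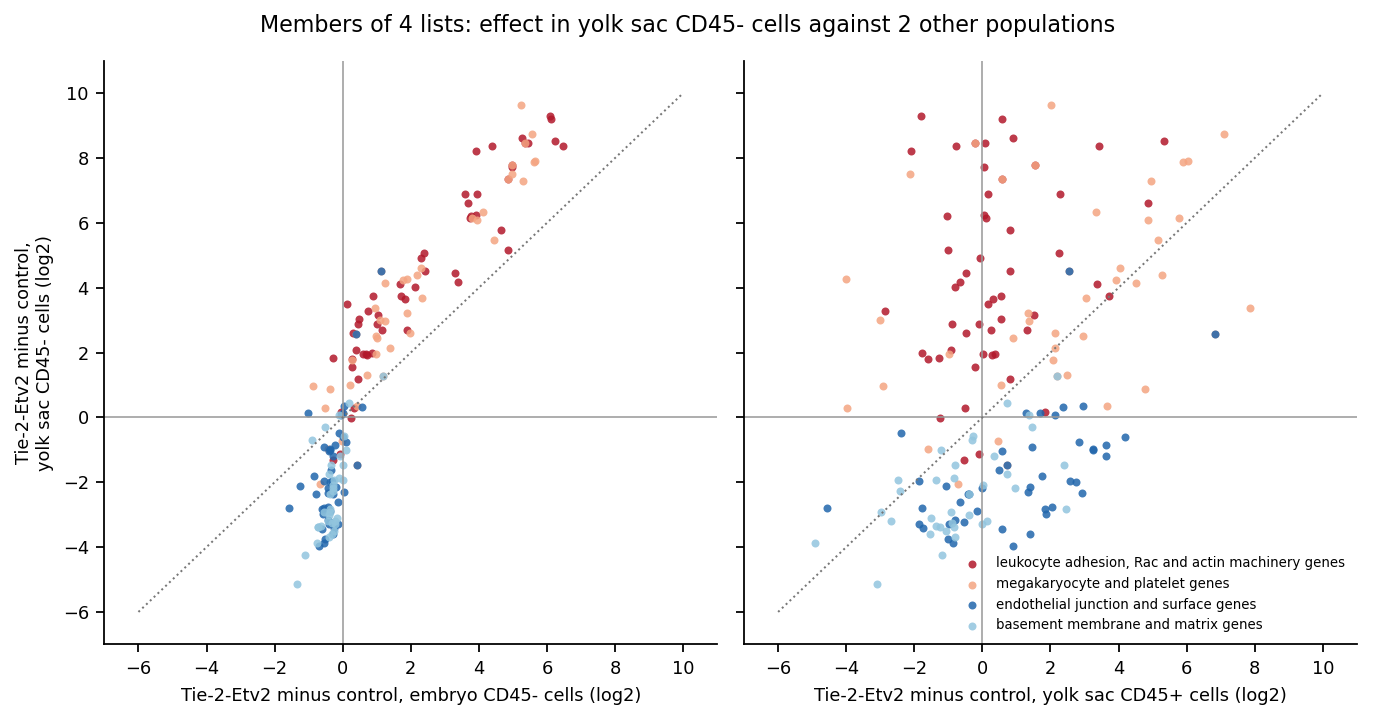
Effect of each member of 4 lists in yolk sac CD45- cells (y axis) against its effect in embryo CD45- cells (left) and yolk sac CD45+ cells (right), all as Tie-2-Etv2 minus control in log2; the dotted line marks equal effects. On the left most points lie farther from 0 on the y axis than on the x axis, and on the right leukocyte adhesion genes scatter about 0 on the x axis, with a median of 0.08.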

How the data were processed

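RNA of FACS-sorted mouse cells was extracted with a Qiagen microelute kit, and Cy3 was introduced by the Agilent Low Input Quick Amp protocol, per the labels. The scanner files deposited by the authors hold spot intensity values made with Agilent Feature Extraction 10.7, per the submitters' processing notes. The processed intensity used here is background-subtracted within an array and not normalized between arrays, per the file headers. The authors' deposited value table holds log2 values, centred within tissue and gate as found by comparing it with the scanner files; the way it was made is not stated in any source at hand, its scale and direction follow from that comparison, and it served as an alternative. Its column medians were 0.0156 and -0.00454 for the Tie-2-Etv2 arrays and 0.0851 and -0.183 for the control arrays of yolk sac CD45- cells.

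Spots of a probe were averaged without control and outlier spots, which left 55594 of 55681 probes. Levels are log2(processed intensity) minus the array's 75th percentile. A filter kept the 34125 probes that some group showed well above background on both of its arrays, and the brightest probe stood for a gene, giving 24578 genes, 16532 with a symbol from the files or from a RefSeq table of GRCm38.p6, which was used for names and promoters only.

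One limma 3.58.1 model (R 4.3.3, lmFit and eBayes, 8 residual and 2.29 prior degrees of freedom) was fitted over the 8 groups of 2 arrays, with Benjamini-Hochberg adjustment over all genes at 0.05, two-sided, and was tested on simulated data. Pooling all groups was chosen because 2 arrays give little of their own spread. The number of arrays limits the precision. Differences of effects were contrasts of this model. Tables and figures were made with Python 3.11.15, pandas 2.3.3, numpy 2.4.6 and matplotlib 3.10.9.

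Promoters are RefSeq's, 250 bases before to 50 after the start. The 28 gene lists hold 970 distinct genes, 927 of them tested, and some genes stand in several lists. Members and lists were chosen with earlier results of these data known. Named genes were Etv2, example genes of each list, the 2 members per list that rose and fell most, the 8 measured genes that rose and the 8 that fell most, the 6 largest bounds in each direction and the 6 largest differences of effect in each direction; marker genes of the gate and of other cell types were added. Some genes that this rule names are not reported here. Alternatives tried were quantile normalization, detected-probe scaling, normexp (offset 50), no filter and a strict filter, the mean of probes, fewer arrays in the fit, a trended robust prior, the replicate number as a block, the deposited table and leaving out each array in turn. Same-numbered samples of Tie-2-Etv2 and control groups did not deviate together throughout (correlations of deviations between -0.00601 and 0.267), so replicate numbers were not taken as pairs.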

Additional observations from a re-analysis of the deposited data

Results flagged for a closer look

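The Tie-2-Etv2 effect in yolk sac CD45- cells differed from that in embryo CD45- cells by a test of the difference for 3917 genes, with tissue and slide not told apart. The genes named here have the largest such differences in each direction among genes measured on all arrays compared. On the positive side they were Rassf5, a Ras effector of lymphocyte adhesion (4.74; effects of 5.48 in the yolk sac and 0.74 in the embryo), Mpo (4.73), Clec4g, an endothelial lectin (4.54), Slco4a1 (4.47), Myb (4.41) and Hmga2-ps1 (4.15). The calls of Clec4g and Slco4a1 were lost without some single arrays: for Clec4g, embryo Tie-2-Etv2 array 1, yolk sac control array 2 and yolk sac Tie-2-Etv2 array 1, and for Slco4a1 each array but embryo control array 2, where Slco4a1 was 3.41 without embryo control array 1. On the negative side they were Gkn2 (-8.72), Edn2 (-7.66), Mucl3 (-7.61), Pnoc (-7.50), Glipr1 (-6.28, effects of -5.01 and 1.27) and Serinc2 (-6.07, effects of -6.18 and -0.11). All read lower in control embryo than in control yolk sac cells. The embryo control levels were -0.87 and -2.80 for Gkn2, -3.70 and -4.65 for Edn2, and -2.85 and -3.37 for Mucl3. They were -0.82 and -1.42 for Pnoc, -3.84 and -4.86 for Glipr1, and -0.76 and -0.20 for Serinc2. The lowest levels well above background on those arrays were -4.56 and -5.32, so an equal fall could not have been measured in the embryo.

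The effect differed between the CD45- and CD45+ gates of the yolk sac for 4517 genes by the same kind of test. Among genes well above background on all arrays compared, the largest positive differences were those of F13a1, coagulation factor XIII A of platelets and macrophages (11.49; effects of 8.34 in CD45- and -3.15 in CD45+ cells, its probes in CD45- cells ranging from 3.87 to 8.34), Pf4 (9.63), Plek (8.68), Rac2 (8.62), Tbxas1, thromboxane synthase (8.29; effects of 4.28 and -4.01), and Ccdc88b (7.77). The largest negative ones among these genes were those of Pi16 (-8.12; effects of -5.52 and 2.61), F3, tissue factor (-6.59), Hid1 (-6.43; effects of -0.98 and 5.45), Ltf, lactoferrin (-6.29; effects of -1.84 and 4.44), Slco3a1 (-6.14; effects of -0.85 and 5.29) and Lbp, the lipopolysaccharide-binding protein (-6.05; effects of -2.85 and 3.20).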

How the results depend on the processing

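In yolk sac CD45- cells 10287 genes passed; fits with 1 array left out gave totals of 6590 to 8899, with 3903 to 5511 higher, and 4066 were higher with the detected-probe scaling. For the comparison with the embryo 2526 genes passed with no filter, 1393 of them higher, and 1032 were higher with the detected-probe scaling; leaving out 1 array gave 1500 to 3700 genes, 760 to 2151 higher and 740 to 1549 lower. For the comparison with CD45+ cells, leaving out 1 array gave 1688 to 2616 higher. The fit with the replicate block gave 10510, 2877 and 4143 genes for the 3 comparisons and changed the call of 7 of 206 named genes, 5 gained and 2 lost (Fdft1, adjusted p = 0.0501, and Serpinb1a, adjusted p = 0.0597). Of the named genes 136 kept direction and call under all alternatives, as did 22 of the 24 named differences of effect. With the deposited table all 206 did, but its array differences within tissue and gate match those of the scanner files (lowest correlation 1). That setting could therefore hardly change a result and is no separate check. List medians near 0 changed sign: blood emergence factors were -0.13 with detected-probe scaling; mast cell genes -0.01 with normexp and -0.30 with the strict filter; erythroid genes -0.02 with quantile normalization and with the probe mean and -0.16 with detected-probe scaling; macrophage genes -0.13 with detected-probe scaling, -0.09 with normexp and -0.28 with the strict filter; the median difference of early lymphoid genes was -0.19 with detected-probe scaling, -0.06 with normexp and -0.0044 to 0.23 with 1 array left out; Toll-like receptor genes -0.08 with detected-probe scaling and -0.01 with normexp. Genes that did not pass also changed sign. With detected-probe scaling and normexp, Mcpt8 was -0.26 and -0.12, Il7r -0.08 and -0.06, Flt3 -0.23 and -0.07, Ccr1 -0.04 and -0.12, and Nlrp3 -0.24 and -0.08. With quantile normalization Sqle was -0.07, Slc2a1 -0.32 and Hk2 -0.03, with detected-probe scaling Slc2a1 -0.22 and Hk2 -0.15, and with the probe mean Cdkn1a 0.10. With 1 array left out the range was -0.13 to 0.25 for Mcpt8, -0.40 to 0.27 for Klf1, -0.19 to 0.18 for C1qa, -0.08 to 0.56 for Il7r, -0.24 to 0.40 for Flt3, -0.19 to 0.18 for Sox2, -0.28 to 0.02 for Sema6d, -0.27 to 0.83 for Ccr1, -0.30 to 0.45 for Nlrp3, -0.26 to 0.59 for Hk2, -0.05 to 0.05 for Cdkn1a, -0.59 to 0.31 for Xist and -0.31 to 1.10 for Ddx3y. The cause of these changes was not tested. Signals near background limit the size of differences of dim genes, which normexp shrinks; 2 arrays per group on 1 slide, an endoderm signal that differs between the Tie-2-Etv2 arrays, and replicates of unstated origin limit the rest. The comparison with the embryo was not run on the yolk sac slide alone.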

Other observations

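Chemokine genes included members that rose and members that fell in Tie-2-Etv2 yolk sac CD45- cells. Of 36 chemokine and receptor genes 14 were higher (38.9%) and 8 lower (22.2%), beside 26.1% and 15.8% over all genes, with a median of 1.00. With normexp 8 were higher at a median of 0.11. Cxcl12, the ligand that holds progenitors near vessels, stood at -0.19 and 0.54 in Tie-2-Etv2 cells, against 3.45 and 3.59 in control cells, a difference of -3.35 ± 0.66 (adjusted p = 0.00249). Its receptors fell as well, Ackr3 by 3.59 ± 0.46 and Cxcr4 by 2.63 ± 0.54 (-1.59 with normexp). Tnf, the inflammatory cytokine, stood at 3.18 and 3.45 in Tie-2-Etv2 cells, against -1.59 and -1.88 in control cells, a difference of 5.05 ± 0.53 (adjusted p = 5.9e-05). Il1b was at least 89.2-fold higher (adjusted p = 2.8e-08; 3.93 with normexp) and Ccl3 at least 36.6-fold higher (adjusted p = 1.71e-05; 2.56 with normexp). Of 36 Toll-like receptor and inflammasome genes 12 were higher (33.3%) and 6 lower (16.7%), beside 26.1% and 15.8% over all genes, with Tlr2 (1.73, lost without control array 2) and the adaptor gene Myd88 (1.75 ± 0.20) up and Tlr4 (-1.54; -0.84 with normexp) down. Of 34 interferon-induced genes 10 were lower and 0 higher, with a median of -1.12, but 16 were lower and 3 higher with the arrays of the yolk sac slide alone, 19 lower and 4 higher with only the arrays compared in the fit, and 11 lower and 3 higher with the replicate block. Oasl2, an antiviral sensor gene, fell by 3.28 ± 0.41 and Irf7 by 2.52 ± 0.49 (-1.51 with normexp). In CD45+ cells the interferon-induced genes had a median of -2.28.

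Immediate early genes, which are also induced when cells are dissociated, were lower for 11 of 21 members and higher for 1, with a median of -1.13; 7 were lower without either control array and 6 without Tie-2-Etv2 array 1. Fos stood at 3.35 and 3.94 in Tie-2-Etv2 cells, against 6.82 and 6.77 in control cells (-3.15 ± 0.37), and Atf3 at 2.85 and 2.86, against 6.45 and 6.64 (-3.69 ± 0.49). Of 31 glycolysis and hypoxia genes 17 were higher and 3 lower, with a median of 1.07. Slc2a3, the glucose transporter GLUT3, stood at 7.03 and 6.56 in Tie-2-Etv2 cells, against 2.57 and 3.45 in control cells (3.78 ± 0.46, adjusted p = 0.000142). Of 22 integrin genes 7 were higher and 8 lower (5 lower without Tie-2-Etv2 array 1): besides the platelet and leukocyte chains that rose, Itgb5 fell by 3.75 ± 0.43 and Itga3, a laminin receptor chain, by 2.88 ± 0.49. Of 25 cholesterol synthesis genes 9 were higher and 1 lower, with 5 higher under detected-probe scaling and without control array 2, and 4 without Tie-2-Etv2 array 1. Beside 26.1% higher and 15.8% lower over all genes, the shares were 31.8% and 36.4% for integrin genes and 36% and 4% for cholesterol synthesis genes. Of 48 ribosomal protein genes 8 were higher (16.7%) and 0 lower, beside the same shares over all genes, and 17 were higher with normexp. Their median of 0.44 was 0.37 without control array 2 and 0.36 without Tie-2-Etv2 array 1. Of 22 p53 target and apoptosis genes 7 were higher (31.8%; 4 without control array 2) and 2 lower (9.09%), beside 26.1% and 15.8% over all genes, and of 6 sex-linked genes 1 was higher.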
